A study of Mus musculus with 5 samples.

Results

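The maps compared here describe DNA contacts at the mouse Shh locus: that of intraTAD2-2xBorCTCF limb buds and that of intraTAD2 limb buds. All pairs of 5 kb bins of chr5:27480001-30270000 (mm10) entered, which makes 155961 bin pairs among 558 bins, and these are 2 of the 5 samples of the series. Both genotypes are homozygous and were sampled at E10.5, a stage of embryonic limb bud growth. The intraTAD2-2xBorCTCF embryos (called 2xBorCTCF from here on) came from tetraploid aggregation, which joins embryonic stem cells with tetraploid host embryos, and the intraTAD2 embryos came from mating. In such aggregates the embryo proper is generally formed by the stem cells. The name of the 2xBorCTCF genotype contains that of intraTAD2. The sources used here do not describe the change made in each allele, nor say whether the stem cells were 1 clone. Allele and embryo source therefore cannot be told apart in any difference below. Levels are also given for intraTAD2-1xBorCTCF (tetraploid aggregation), intraTAD2-i4CTCF and intraTAD3 (both mating), all homozygous and of the same stage, and for the authors' wild-type map, which belongs to no sample.

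Sonic hedgehog, the protein made from Shh, is the secreted signal that patterns the limb bud from thumb to little finger. Its limb enhancer, the ZRS, lies in an intron of Lmbr1, at the far end of a gene desert, and gene and enhancer share a topologically associating domain, a stretch of chromatin that contacts itself more than its surroundings. Borders of such domains are commonly bound by CTCF, a protein that halts the extrusion of chromatin loops by cohesin. Capture Hi-C counts ligations between fixed DNA fragments within an enriched region, so a contact is a frequency over many cells and not a distance in 1 cell. The files hold no expression values, so the labelled tissue could not be checked against marker genes.

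Each genotype has 1 library, so no test could be made and the spread between embryos is unknown. The 2xBorCTCF map held 1121340 contacts and the intraTAD2 map 2942790, and 72.0% of bin pairs were listed in 2xBorCTCF, against 88.1% in intraTAD2. A listed pair had a median of 3 contacts in 2xBorCTCF and 6 in intraTAD2. Contact is given below as a distance-normalised level: the balanced value over the average value of bin pairs equally far apart in that map, so that 1 is the average at that distance. Differences are log2 ratios of 2xBorCTCF over intraTAD2 with a 95% interval that covers counting error only. A window is called higher or lower where its levels were at least 1.3-fold apart and the interval left out 0. Single bin pairs were too sparse to read: of 105953 with contacts in both maps, 27.9% were 2-fold or more apart. All results are therefore sums over windows, and each level is of 1 library.

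The clearest difference near Shh lay inside the gene desert, 217.9 kb from the start of the gene. The contact of Shh (chr5:28456840-28467101, minus strand, with 1 bin added on each side) with the 25 kb at chr5:28675001-28700000 was 2.26 in 2xBorCTCF and 1.295 in intraTAD2. The log2 ratio was 0.81 (0.65 to 0.96), from 610 contacts in 2xBorCTCF and 1295 in intraTAD2. No annotated protein-coding gene lies in that window. The other maps had levels of 1.95 in intraTAD2-1xBorCTCF, 1.10 in intraTAD2-i4CTCF, 1.00 in intraTAD3 and 1.10 in wild type. Thus the 2 BorCTCF maps, which are also those from tetraploid aggregation, stood above the 4 others, and 2xBorCTCF was the highest.

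The window was centred on the bin chr5:28685001-28690000 because that bin held more contacts than any other bin of the domain in intraTAD2; it was chosen after its values had been seen. The sources used here do not say whether either allele was changed in this bin, so what its contacts reflect was not determined. Of every 10000 bin ends of contacts, 37.2 fell in this bin in 2xBorCTCF and 65.5 in intraTAD2, with 59.5 in intraTAD2-1xBorCTCF, 42.3 in intraTAD2-i4CTCF, 34.9 in intraTAD3 and 36.8 in wild type. Balancing divides such a surplus out, so the raised bin bears directly on the value above. Without the raised bin, the 4 bins beside it still had a level of 2.02 in 2xBorCTCF and 1.28 in intraTAD2 (log2 ratio 0.66, 0.47 to 0.85). For the raised bin alone the levels were 3.25 in 2xBorCTCF and 1.37 in intraTAD2 (1.25, 1.01 to 1.48). In contacts without the bin factors of the balancing, the log2 ratio of the 25 kb window came to 0.47 and that of the 4 bins to 0.63.

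Seen bin by bin, the balanced contact with Shh in 2xBorCTCF formed a peak. It reached 1.99 at the bin starting at 28675001, 2.24 at 28680001, 3.25 at 28685001, 2.00 at 28690001 and 1.83 at 28695001. The same bins in intraTAD2 had 1.23, 1.26, 1.37, 1.37 and 1.24, which is nearly flat. Before the bin factors, 28685001 held the most contacts with Shh of these bins in both maps, 211 in 2xBorCTCF and 538 in intraTAD2. The bin before it had 149 in 2xBorCTCF and 246 in intraTAD2, and the bin after it 97 and 187, in that order. The flat row of intraTAD2 thus holds for balanced levels only. Of the 25 bin pairs between the Shh window and these 5 bins, 23 were higher in 2xBorCTCF, with log2 ratios of -0.61 to 1.86 and a median of 0.68. Set over the bin pairs around it in the same map, the contact was 1.67 times its surroundings in 2xBorCTCF and 1.255 times in intraTAD2 (log2 ratio 0.41, 0.22 to 0.60). The surroundings were themselves at 1.36 in 2xBorCTCF and 1.03 in intraTAD2, so contact was also higher around the peak.

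**Figure D1:**
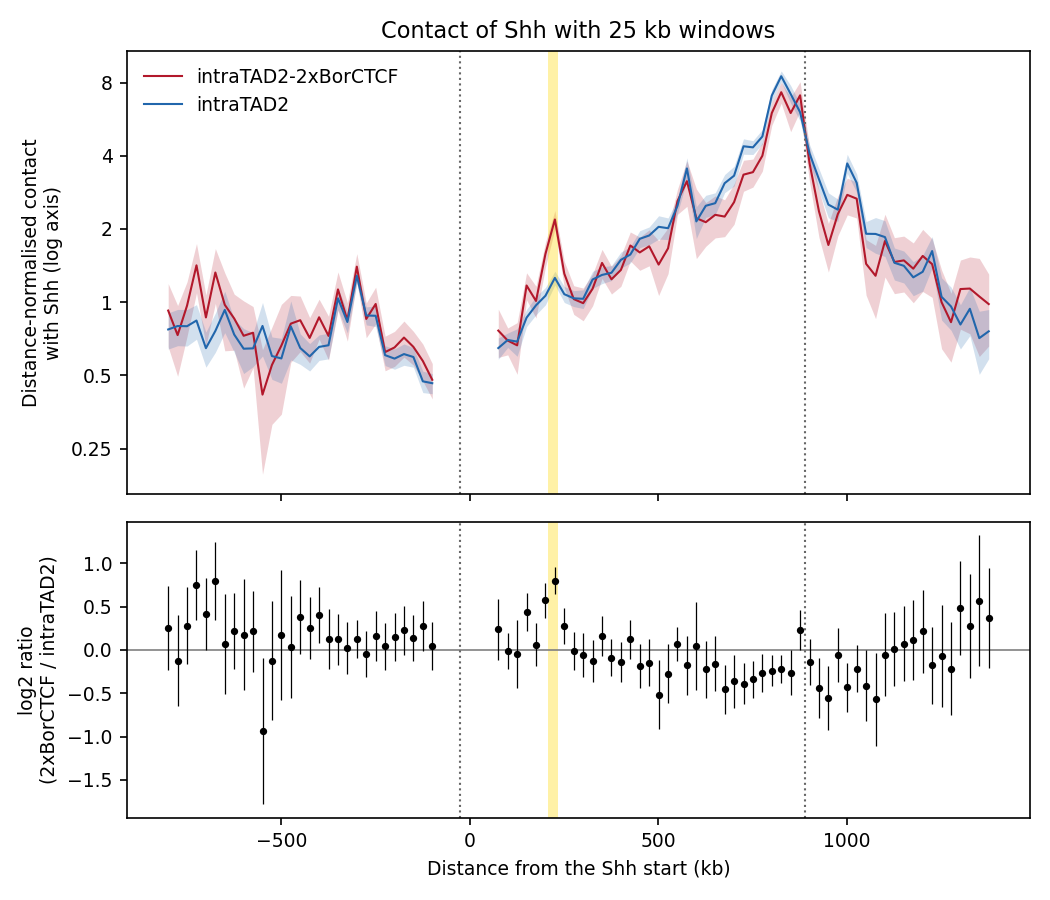
The upper panel plots the distance-normalised contact of Shh with 25 kb windows on a log axis against the distance from the Shh start in kb, for intraTAD2-2xBorCTCF (red) and intraTAD2 (blue), with shaded 95% intervals of counting error. The lower panel gives the log2 ratio with its interval. The yellow band is the 25 kb around the raised bin, at 2.26 in 2xBorCTCF and 1.295 in intraTAD2, and the dotted lines are the domain borders, between which the red line lies mostly under the blue one at 500 kb and beyond.

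Viewed from the 25 kb window, the gain around Shh was centred on the 3' side of the gene and the adjoining border rather than on the gene start. Its contact was 2.88 in 2xBorCTCF and 1.20 in intraTAD2 with the bin starting at 28455001 (log2 ratio 1.26, 0.90 to 1.62), which holds the 3' end of Shh. At the bin starting at 28465001, which holds the start of Shh, it was 1.86 in 2xBorCTCF and 1.36 in intraTAD2 (0.46, 0.16 to 0.76). At 28440001, the bin beginning at the border itself, it was 2.37 in 2xBorCTCF and 0.890 in intraTAD2, from 31 contacts in 2xBorCTCF and 34 in intraTAD2. Among 106 windows of 25 kb across the region, 13 had higher contact with the raised-bin window in 2xBorCTCF (12.3%) and 1 had lower contact (0.943%). Of the 13, 10 lay on the En2 side of the border, 2 at the border and Shh, and 1 past the domain. The window across the border, at 28430001, had 1.99 in 2xBorCTCF and 0.970 in intraTAD2 (1.04, 0.72 to 1.36). On the En2 side, the highest ratio was at 27980001, between Htr5a and Insig1, with 1.68 in 2xBorCTCF and 0.836 in intraTAD2 (1.01, 0.26 to 1.76), from 73 contacts in 2xBorCTCF and 170 in intraTAD2. The others there lay over Dpp6, Paxip1, Insig1, Cnpy1 and the stretch up to Rbm33, and included 28405001 at the end of Rbm33, with 1.01 in 2xBorCTCF and 0.760 in intraTAD2 (0.41, 0.19 to 0.63). By whole gene, the window of Lmbr1, which contains the ZRS, had 2.04 in 2xBorCTCF and 1.961 in intraTAD2 (0.06, -0.04 to 0.16), and that of Rbm33, which encodes an RNA-binding protein across the border from Shh, 0.718 in 2xBorCTCF and 0.577 in intraTAD2 (0.32, 0.18 to 0.45). With the 25 kb just inside the Lmbr1 border it was 2.37 in 2xBorCTCF and 1.91 in intraTAD2 (0.31, 0.03 to 0.60). Most windows called higher thus lay on the En2 side. By whole gene, intervals there included 0 for Speer4b (0.71), Paxip1 (0.08), Htr5a (0.04), Insig1 (0.43), En2 (0.11) and Cnpy1 (0.15). The interval left out 0 for Dpp6 (0.34), as for Rbm33. Inside Lmbr1, the windows at 29280001 (0.24, 0.04 to 0.45) and 29305001 (0.37, 0.06 to 0.68) had intervals that left out 0, under the 1.3-fold. The interval for Lmbr1 as a whole included 0.

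Farther along the domain, the contacts of Shh in 2xBorCTCF lay below those in intraTAD2 over some stretches and not over others. In the 4 tiles of 50 kb from 28730001 to 28930000, just past the peak, the log2 ratio was -0.11 to 0.03 and each interval included 0. In the 4 tiles from 29130001 to 29330000, over Rnf32 and most of Lmbr1, it was -0.41 to -0.23 and each interval left out 0. Between these, the interval left out 0 in 1 tile, at 28930001 (-0.33, -0.56 to -0.09). At the end of the domain, the 25 kb at 29330001 had 7.09 in 2xBorCTCF and 6.04 in intraTAD2 (0.23, 0.0026 to 0.46). Shh with Lmbr1 was 5.38 in 2xBorCTCF and 6.04 in intraTAD2 (log2 ratio -0.17, -0.25 to -0.08), from 1806 contacts in 2xBorCTCF and 6271 in intraTAD2. For Rnf32, the neighbour of Lmbr1, which encodes a RING finger protein, contact with Shh was 3.45 in 2xBorCTCF and 4.35 in intraTAD2 (-0.34, -0.49 to -0.19). Neither passed the 1.3-fold, and the value for Lmbr1 changed sign, to 0.078, when bin pairs with 1 contact were set to 0. Levels in the other maps were 4.78 for Lmbr1 and 3.05 for Rnf32 in intraTAD2-1xBorCTCF, and 5.63 and 3.70, in that order, in wild type. Both genes thus had more contact with Shh in intraTAD2 than in either BorCTCF map.

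Inside Lmbr1, the 15 kb at chr5:29305001-29320000 had few contacts in intraTAD3 and were examined with only the bins left out that fail in the maps compared. Their contact with Shh was lower in 2xBorCTCF, at 4.98, than in intraTAD2, at 6.84 (log2 ratio -0.46, -0.76 to -0.16), from 142 contacts in 2xBorCTCF and 563 in intraTAD2. Levels were 5.54 in intraTAD2-1xBorCTCF, 4.98 in intraTAD2-i4CTCF, 1.52 in intraTAD3 and 5.60 in wild type. Whether the ZRS lies in these bins was not determined here, as no annotation of it was used.

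Across 50 kb tiles seen from Shh, 8 of 53 were higher (15.1%) and 2 were lower (3.77%). The higher ones were the tile starting at 28680001, which overlaps the peak, 3 tiles over Dpp6 and Paxip1, and 4 tiles from 30030001 on. The lower ones began at 29130001, in the desert short of Rnf32, with 2.41 in 2xBorCTCF and 3.20 in intraTAD2 (log2 ratio -0.41, -0.61 to -0.20), and at 29380001, just past Lmbr1, with 2.04 in 2xBorCTCF and 2.86 in intraTAD2 (-0.49, -0.74 to -0.23). In windows of 25 kb, 10 of 106 were higher (9.43%) and 10 were lower (9.43%). The 4 tiles from 30030001 on rest on 24 to 52 contacts in 2xBorCTCF.

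By gene, 6 of the 21 protein-coding genes at least 50 kb from the Shh window had higher contact with Shh in 2xBorCTCF and 2 had lower contact, set against 5.65% higher and 2.17% lower among all 230 gene pairs of the region. Of the 6 higher genes, 5 were genes farther out that lie near each other, some with overlapping windows. The genes are thus not independent, which bears on the counts and on the median. The median log2 ratio was 0.24 over these 21 genes and 0.03 over all gene pairs. On the En2 side, 1 of 5 genes was higher and none was lower. That gene was Paxip1 (chr5:27740080-27791672), an adaptor protein of the DNA damage response, with 1.21 in 2xBorCTCF and 0.726 in intraTAD2 (0.74, 0.47 to 1.01), from 201 contacts in 2xBorCTCF and 369 in intraTAD2. En2 itself, a homeobox gene of the midbrain and hindbrain, had 1.44 in 2xBorCTCF and 1.36 in intraTAD2 (0.08, -0.16 to 0.32). Cnpy1, its neighbour, had 0.818 in 2xBorCTCF and 0.764 in intraTAD2 (0.10, -0.08 to 0.28). Intervals also included 0 for Insig1, a regulator of cholesterol synthesis (0.949 in 2xBorCTCF and 0.752 in intraTAD2), and for the serotonin receptor gene Htr5a (0.850 in 2xBorCTCF and 0.730 in intraTAD2).

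On the other side of the domain, 1 of 4 genes was lower and none was higher. This was Mnx1 (chr5:29473823-29478470), a homeobox gene of motor neurons and pancreas, whose contact with Shh was 3.04 in 2xBorCTCF and 4.29 in intraTAD2 (log2 ratio -0.50, -0.80 to -0.20), from 125 contacts in 2xBorCTCF and 480 in intraTAD2. Its level was 4.56 in intraTAD2-1xBorCTCF, 5.30 in intraTAD2-i4CTCF, 4.23 in intraTAD3 and 5.18 in wild type, so that 2xBorCTCF was the lowest of the 6 maps. The gene next to it, Nom1, which encodes a nucleolar protein, had 2.32 in 2xBorCTCF and 2.46 in intraTAD2 (-0.08, -0.34 to 0.18). For the ubiquitin ligase gene Ube3c and the chaperone gene Dnajb6 the intervals included 0 as well. Among the 10 genes farther out, 5 were higher and 1 was lower, from 8 to 353 contacts in 2xBorCTCF. The higher ones were Tyms (log2 ratio 0.98, 0.29 to 1.67), 3110082J24Rik (0.84), Hadha (0.67), Hadhb (0.99) and Adgrf3 (1.06), which follow each other along the chromosome apart from Garem2, whose interval included 0. The lower one was the cytokine gene Il6, with 12 contacts in 2xBorCTCF and 70 in intraTAD2. The value for 3110082J24Rik turned to -0.15 with no bin added beside the gene.

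Promoters of Shh, En2, Mnx1 and Paxip1 were sought, and the promoter set used here held only those of Mnx1 and Paxip1, which are shown. They are RefSeq sequences of the GRCm38.p6 build, the same build as the maps, both on the minus strand, at chr5:29478421-29478720 for Mnx1 and chr5:27791501-27791800 for Paxip1. Each runs 5′ to 3′ over 250 bases in lower case and then 50 bases in capitals. For Mnx1 the capitals begin at the gene start. For Paxip1 they begin inside the gene as annotated here (chr5:27740080-27791672), so part of its lower-case stretch lies within the gene.
Mnx1: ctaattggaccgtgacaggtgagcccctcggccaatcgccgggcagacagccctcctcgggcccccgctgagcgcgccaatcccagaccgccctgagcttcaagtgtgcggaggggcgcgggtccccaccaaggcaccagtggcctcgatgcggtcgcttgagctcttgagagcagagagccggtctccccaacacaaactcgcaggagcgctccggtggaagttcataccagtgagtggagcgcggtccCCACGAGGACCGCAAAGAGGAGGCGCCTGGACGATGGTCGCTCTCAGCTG
Paxip1: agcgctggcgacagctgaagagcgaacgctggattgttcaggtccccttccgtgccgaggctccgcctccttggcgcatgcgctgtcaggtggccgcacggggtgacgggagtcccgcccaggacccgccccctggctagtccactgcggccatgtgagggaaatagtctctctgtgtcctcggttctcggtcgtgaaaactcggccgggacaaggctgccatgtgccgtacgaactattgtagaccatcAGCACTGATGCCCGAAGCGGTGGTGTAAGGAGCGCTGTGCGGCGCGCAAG
Both are rich in CG dinucleotides, with 26 in Mnx1 and 28 in Paxip1, against a median of 7 over 32851 promoters of the same length.

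**Figure D2:**
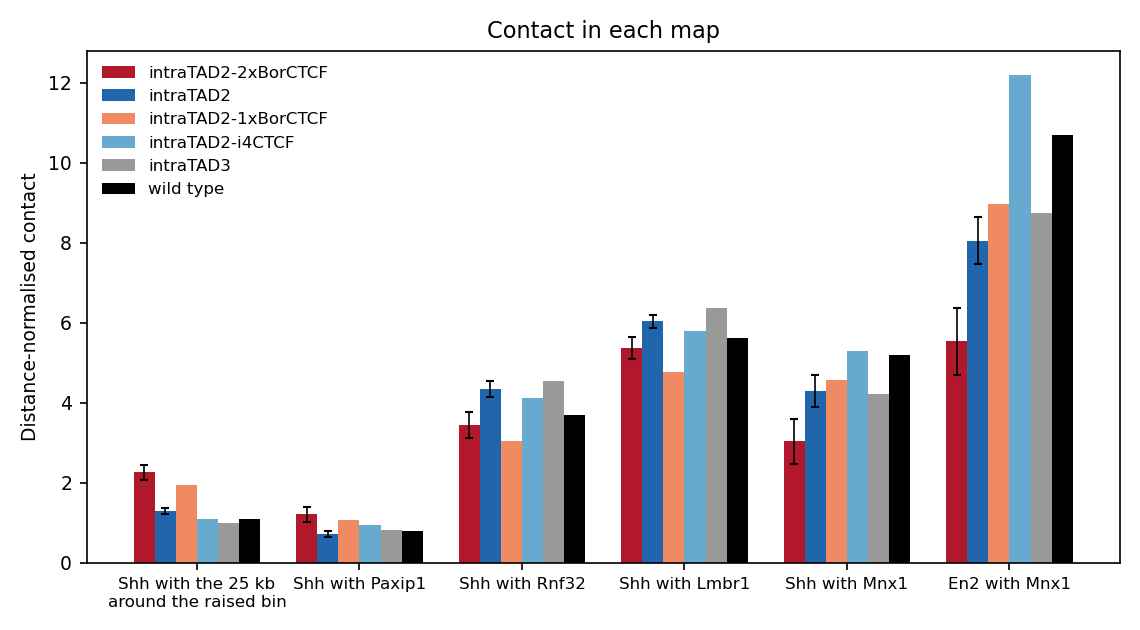
Bars give the distance-normalised contact of 6 pairs of windows in each map, with intraTAD2-2xBorCTCF and intraTAD2 first and 95% intervals of counting error on these 2. In 2xBorCTCF, contact of Shh with the raised-bin window (2.26) and with Paxip1 (1.21) was the highest of the 6 maps, and contact of Shh with Mnx1 (3.04) and of En2 with Mnx1 (5.54) the lowest.

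Mnx1 also had less contact in 2xBorCTCF with genes on the opposite side of the Shh domain. The contact of En2 (chr5:28165696-28172190) with Mnx1 was 5.54 in 2xBorCTCF and 8.06 in intraTAD2 (log2 ratio -0.54, -0.78 to -0.30), from 178 contacts in 2xBorCTCF and 789 in intraTAD2. It was 8.98 in intraTAD2-1xBorCTCF, 12.2 in intraTAD2-i4CTCF, 8.75 in intraTAD3 and 10.7 in wild type. These homeobox genes, with 1285 kb between their windows, thus had several times the average contact in every map, and the least in 2xBorCTCF.

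Neighbouring genes shared the difference. Cnpy1 with Mnx1 was 1.93 in 2xBorCTCF and 2.78 in intraTAD2 (-0.53, -0.77 to -0.29), and Rbm33 with Nom1 was 1.80 in 2xBorCTCF and 2.47 in intraTAD2 (-0.46, -0.60 to -0.32). Of 24 pairs between the 6 genes of the En2 side and the 4 genes of the Mnx1 side, 3 were lower and 0 were higher, with a median log2 ratio of -0.21 and a range of -0.54 to 0.25. Some of these windows adjoin, so the pairs are not independent. With bin pairs of 1 contact set to 0, the ratio fell under the 1.3-fold for En2 with Mnx1 (-0.14), Cnpy1 with Mnx1 (-0.24), Rbm33 with Nom1 (-0.25) and Shh with Mnx1 (-0.22). With no bin added beside the genes, Shh with Mnx1 also came to just under it (-0.37). Lmbr1 had 0 called changes with its 20 partner genes, against 7.83% called among all 230 gene pairs. Its interval left out 0 for 4 genes on the higher side and 3 on the lower. Some 50 kb tiles inside Lmbr1 were called, lower for 29330001 with 28130001 (-0.45) and higher for 29230001 with 30230001 (0.65). The contact of Lmbr1 with Mnx1 was 0.512 in 2xBorCTCF and 0.514 in intraTAD2.

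At the scale of the whole region, the domain was divided into 3 equal parts of 305 kb between borders taken from the wild-type map, at 28440001 next to Shh and at 29355001 inside Lmbr1. Around it were the En2 flank (Paxip1 to the Shh border), the Mnx1 flank (Lmbr1 border to Dnajb6) and a start and an end flank. Of the 28 block pairs, 6 were higher (21.4%) and 4 were lower (14.3%) by a log2 ratio of at least 0.1 with an interval that left out 0. None reached 1.3-fold. The part of the domain that holds Shh had more contact with the outside on the En2 side and less with the rest of its own domain. Its level was 0.778 in 2xBorCTCF and 0.671 in intraTAD2 with the En2 flank (log2 ratio 0.21, 0.18 to 0.25), and 0.991 in 2xBorCTCF and 0.814 in intraTAD2 with the start flank (0.28, 0.22 to 0.35). It was 1.32 in 2xBorCTCF and 1.46 in intraTAD2 with the middle part (-0.14, -0.17 to -0.11). With the En2 flank, the other maps had 0.802 in intraTAD2-1xBorCTCF, 0.752 in intraTAD2-i4CTCF, 0.657 in intraTAD3 and 0.719 in wild type. There 2xBorCTCF was thus under intraTAD2-1xBorCTCF, and only intraTAD3 was under intraTAD2.

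With the Lmbr1 part, the Shh part had 2.201 in 2xBorCTCF and 2.46 in intraTAD2 (-0.16, -0.19 to -0.13), and with the Mnx1 flank 0.919 in 2xBorCTCF and 1.04 in intraTAD2 (-0.18, -0.22 to -0.13). The flanks on either side of the domain also had less contact with each other, at 1.18 in 2xBorCTCF and 1.34 in intraTAD2 (-0.18, -0.21 to -0.15). Within the Lmbr1 part, the level was 0.932 in 2xBorCTCF and 0.930 in intraTAD2 (0.003, -0.027 to 0.034), and between the middle and Lmbr1 parts 1.23 in both maps. Within the domain, the called differences were thus those of its Shh part with the other parts. The remaining higher pairs joined the start flank to the middle part (0.24) and the Lmbr1 part (0.14), and the end flank to the middle part (0.14) and the Lmbr1 part (0.15). These 4, and the pair of start flank and Shh part, turned negative when only listed bin pairs entered the mean at each distance.

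**Figure D3:**
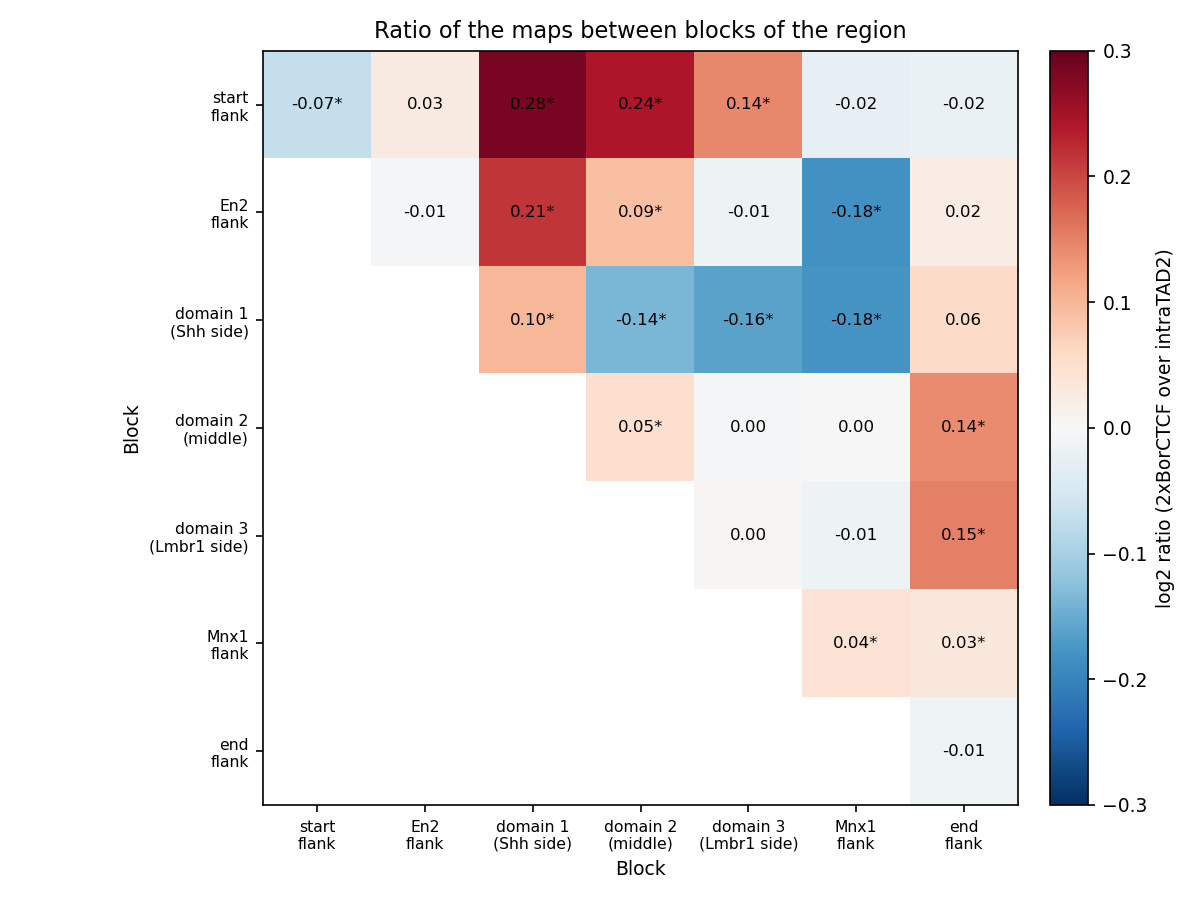
Each cell gives the log2 ratio of 2xBorCTCF over intraTAD2 for the mean distance-normalised contact between 2 blocks of the captured region, and an asterisk marks an interval of counting error that left out 0. The Shh side of the domain is red with the start flank (0.28) and En2 flank (0.21) and blue with the other parts of the domain (-0.14 and -0.16) and the Mnx1 flank (-0.18).

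Dividing the domain at the raised bin instead gave like differences. Contacts across that point, from its Shh side to the stretch up to the Lmbr1 border, were 1.80 in 2xBorCTCF and 2.02 in intraTAD2 (log2 ratio -0.17, -0.20 to -0.14). Contacts within the Shh side were 0.966 in 2xBorCTCF and 0.909 in intraTAD2 (0.09, 0.04 to 0.13), and those within the Lmbr1 side were 1.14 in both maps (0.01, -0.01 to 0.02). From the Shh side to the En2 flank the level was 0.754 in 2xBorCTCF and 0.656 in intraTAD2 (0.20, 0.16 to 0.25), and to the Mnx1 flank 0.977 in 2xBorCTCF and 1.12 in intraTAD2 (-0.20, -0.26 to -0.15). In intraTAD2-1xBorCTCF the contact across that point was 1.70 and that with the En2 flank 0.779.

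Among 1485 pairs of 50 kb tiles, 61 were higher (4.11%) and 43 were lower (2.90%), and the median log2 ratio was 0.016. At up to 500 kb apart, 2 of 404 tile pairs were called (0.495%). Both joined the tile of Shh to the surroundings of the raised bin. The tile starting at 28630001 had 1.31 in 2xBorCTCF and 0.957 in intraTAD2 (0.45, 0.27 to 0.63), and the tile starting at 28680001 had 1.59 in 2xBorCTCF and 1.08 in intraTAD2 (0.56, 0.41 to 0.70). Calls were more frequent farther apart, with 7.23% at 500 to 1000 kb and 14.3% at 1000 to 1500 kb. Past 1500 kb the shares were 8.84%, 5.22% and 9.52% over successive steps of 500 kb, the last with only 21 tile pairs. The median of contacts per tile pair in 2xBorCTCF fell with each step, from 621 up to 500 kb to 217, 145, 75, 40 and 21. The part of these counts in the shares was not tested.

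Counts of called tile pairs by block stand against 4.11% higher and 2.90% lower among all 1485. Since calls were rare up to 500 kb (0.495%) and most frequent at 1000 to 1500 kb (14.3%), placement and distance were not told apart here. Between the En2 flank and the Shh part of the domain, 12 of 83 were higher and 0 were lower. Between the En2 and Mnx1 flanks, 17 of 112 were lower and 1 was higher, and between the Shh part and the Mnx1 flank, 8 of 48 were lower and 1 was higher. Between the start flank and the 3 parts of the domain, 4 of 30, 6 of 30 and 3 of 35 were higher and 0 were lower. Between the end flank and the Shh, middle and Lmbr1 parts, 4 of 60, 8 of 60 and 5 of 70 were higher, and 2, 1 and 0 were lower, in that order.

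Of the 71 called tile pairs with at least 100 contacts in each map, the lowest joined the tile at 28580001 in the desert to that at 29480001, past Mnx1, with 0.549 in 2xBorCTCF and 0.874 in intraTAD2 (-0.67, -1.05 to -0.29). The next 4 joined 28630001 to 29530001 (-0.58), the Rbm33 tile at 28280001 to the Nom1 and Mnx1 tile at 29430001 (-0.56), 28480001 to 29080001 (-0.55) and the Cnpy1 tile at 28180001 to the Ube3c tile at 29530001 (-0.53). Of these 5 lowest pairs, 4 thus ended on the Mnx1 side. The highest joined the Lmbr1 tile at 29230001 to the Selenoi tile at 30230001, with 0.700 in 2xBorCTCF and 0.446 in intraTAD2 (0.65, 0.26 to 1.04). It was followed by the Dpp6 tile at 27530001 with 28630001 (0.64), 28730001 with the Il6 tile at 29980001 (0.59), 27980001 with 28680001 (0.59) and the Htr5a tile at 27830001 with 29030001 (0.57). Other gene pairs called higher with at least 100 contacts were Nom1 with Adgrf3 (1.46 in 2xBorCTCF and 0.961 in intraTAD2) and with Selenoi (1.29 in 2xBorCTCF and 0.912 in intraTAD2), Il6 with Adgrf3 (1.10 in 2xBorCTCF and 0.828 in intraTAD2), and Rnf32 with Tyms (0.864 in 2xBorCTCF and 0.661 in intraTAD2) and with Selenoi (0.640 in 2xBorCTCF and 0.462 in intraTAD2).

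**Figure D4:**
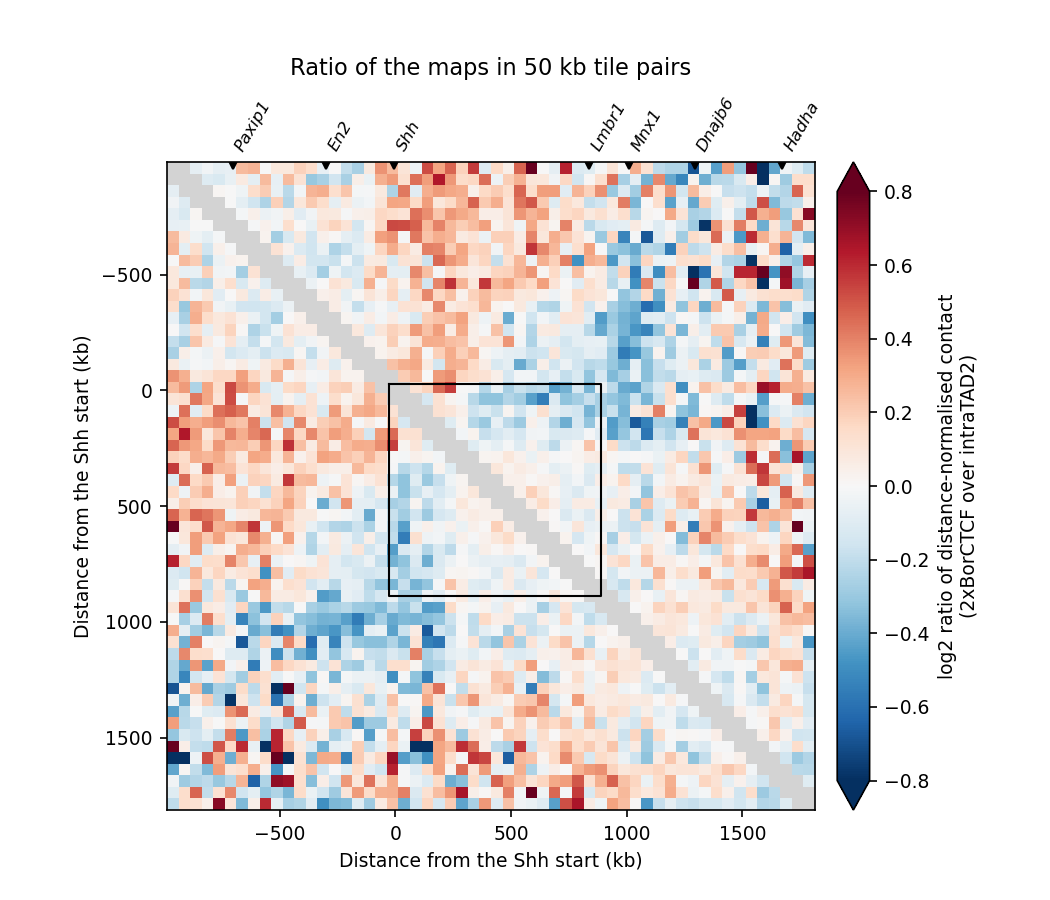
The map shows the log2 ratio of 2xBorCTCF over intraTAD2 for pairs of 50 kb tiles, with both axes in kb from the Shh start, red for higher and blue for lower in 2xBorCTCF, grey for pairs too close to be used and a box for the Shh domain. Red cells gather where the Shh side of the domain meets the En2 and start flanks and, more scattered, where the domain meets the end flank, and blue cells where the Mnx1 side meets the En2 flank and the Shh side. Scattered dark cells far from the diagonal rest on few contacts.

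The border next to Shh insulated less in 2xBorCTCF. Insulation is the log2 of the mean contact across a bin edge in a 100 kb diamond over the mean of all edges, so a lower value is a stronger border. At 28440001 it was -0.78 in 2xBorCTCF and -1.04 in intraTAD2, a difference of 0.25 (0.14 to 0.37), which came to 0.12 in contacts without the bin factors. Levels were -0.93 in intraTAD2-1xBorCTCF, -0.97 in intraTAD2-i4CTCF, -0.98 in intraTAD3 and -1.04 in wild type. The border inside Lmbr1, at 29355001, had -0.86 in 2xBorCTCF and -0.78 in intraTAD2, a difference of -0.08 (-0.15 to -0.01), which shrank to -0.01 without the bin factors. The lowest point lay at 28450001 in 2xBorCTCF and at 28445001 in intraTAD2 for the first border, and at 29375001 in 2xBorCTCF and at 29370001 in intraTAD2 for the second, in each case 1 bin apart.

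Smaller differences were found at 3 of the other 9 minima of the wild-type profile. At 28720001, past the raised bin, insulation was -0.07 in 2xBorCTCF and -0.02 in intraTAD2 (difference -0.06, -0.10 to -0.01), and this turned to 0.028 without the bin factors. At 28885001, in the middle of the desert, it was 0.05 in 2xBorCTCF and -0.01 in intraTAD2 (0.06, 0.02 to 0.11). At 29570001, at the start of Ube3c, it was 0.05 in 2xBorCTCF and -0.05 in intraTAD2 (0.09, 0.04 to 0.14). At the raised bin itself insulation was -0.05 in 2xBorCTCF and -0.04 in intraTAD2, with -0.18 in intraTAD2-1xBorCTCF and 0.09 in wild type. Insulation at the peak of contact with Shh was thus alike in the compared maps.

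**Figure D5:**
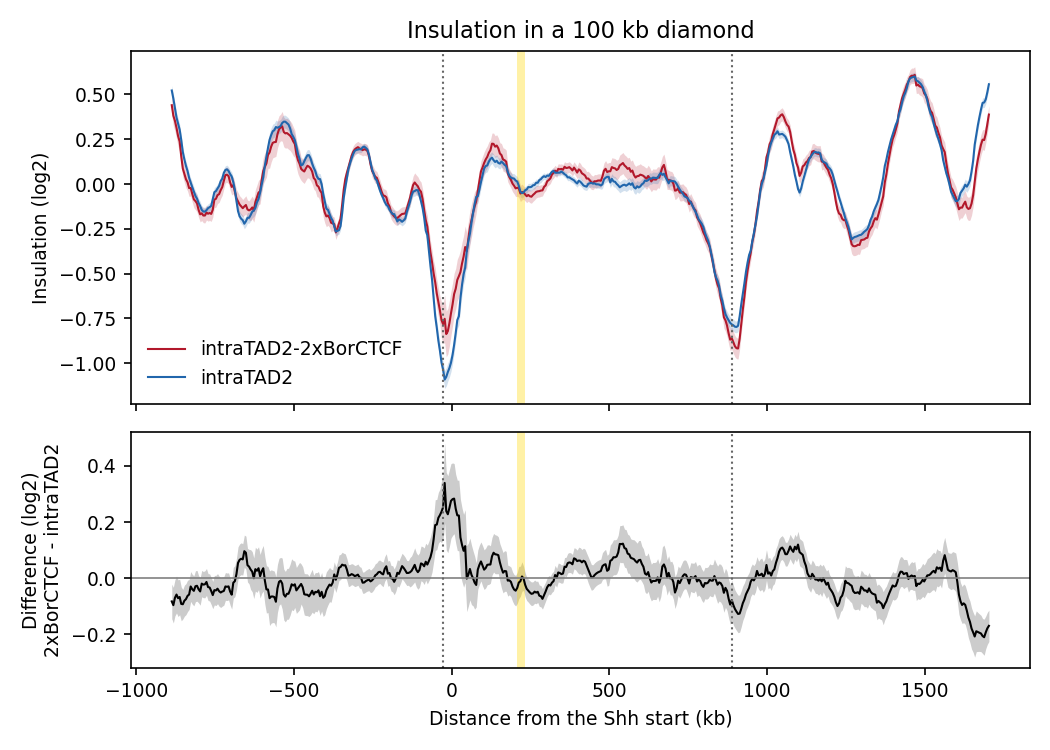
Insulation (upper panel, log2, lower is stronger) and its difference, 2xBorCTCF minus intraTAD2 (lower panel), are plotted against the distance from the Shh start in kb, with shaded 95% intervals of counting error, dotted lines at the domain borders and a yellow band at the raised bin. The dip next to Shh is shallower in 2xBorCTCF (-0.78) than in intraTAD2 (-1.04), and that inside Lmbr1 is slightly deeper in 2xBorCTCF (-0.86) than in intraTAD2 (-0.78).

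Stripes of contact from the borders were read in the same way, and of those given here only the first passed the 1.3-fold. The 25 kb just inside the Shh border had 1.11 in 2xBorCTCF and 0.843 in intraTAD2 with the Shh part of the domain (log2 ratio 0.40, 0.26 to 0.53). The same 25 kb had 4.04 in 2xBorCTCF and 4.72 in intraTAD2 with the Lmbr1 part (-0.22, -0.34 to -0.11) and 1.92 in 2xBorCTCF and 2.25 in intraTAD2 with the Mnx1 flank (-0.23, -0.37 to -0.08). The 25 kb outside that border, in the intergenic stretch towards Rbm33, moved likewise, with 0.795 in 2xBorCTCF and 0.651 in intraTAD2 for the Shh part (0.29, 0.13 to 0.44) and 2.85 in 2xBorCTCF and 3.29 in intraTAD2 for the Lmbr1 part (-0.21, -0.34 to -0.08). Contacts of the border thus lay higher nearby and lower at the far end of the domain on either side of the border line.

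The corner of the domain, where the 25 kb inside one border meets the 25 kb inside the other, had 9.06 in 2xBorCTCF and 7.40 in intraTAD2 (log2 ratio 0.29, -0.06 to 0.64), from 183 contacts in 2xBorCTCF and 462 in intraTAD2. Relative to the bin pairs around it, it was 2.21 in 2xBorCTCF and 1.44 in intraTAD2 (0.61, 0.24 to 0.99). The ring had 4.10 in 2xBorCTCF and 5.12 in intraTAD2. The corner level itself was not told apart at this depth, and its surroundings lay lower in 2xBorCTCF. Windows of 50 kb gave a log2 ratio of -0.03 for the corner. Levels in the other maps ranged widely, with 5.52 in intraTAD2-1xBorCTCF, 9.27 in intraTAD2-i4CTCF, 10.0 in intraTAD3 and 6.70 in wild type.

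Before normalisation, the 2 libraries differed little in how contacts decay with distance. Contacts at 5 to 45 kb were 41.8% of the total in 2xBorCTCF and 40.2% in intraTAD2, a difference of 1.55 percentage points (1.39 to 1.72). The share from 50 kb to under 200 kb was 22.8% in 2xBorCTCF and 23.9% in intraTAD2, and that at 1000 kb or more 7.80% in 2xBorCTCF and 7.45% in intraTAD2. Across the other maps the share at 5 to 45 kb ranged from 38.9% in wild type to 45.5% in intraTAD2-i4CTCF.

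Contacts per bin, which balancing hides, were past 1.3-fold in 41 of 548 bins (7.48%), and 40 of these were lower in 2xBorCTCF (7.30%). The lowest was at 27940001, between Htr5a and Insig1, with 2.23 per 10000 in 2xBorCTCF and 6.76 in intraTAD2, and intraTAD2-1xBorCTCF had 2.46 there. The raised bin was among those lower in 2xBorCTCF, with 7043 contacts in 2xBorCTCF and 34538 in intraTAD2. The 1 higher bin began at 29925001, with 23.5 in 2xBorCTCF and 17.3 in intraTAD2. The part of these differences in the contact ratios was not tested, apart from the values with the raised bin left out.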

How the data were processed

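Capture Hi-C libraries were made from E10.5 limb buds; per the labels' protocols, chromatin was cut with DpnII and captured with custom SureSelect probes. The deposited values are a contact signal per pair of 5 kb bins, balanced by the authors in each map on its own; per the file names, by the Knight-Ruiz method, with reads of mapping quality 30 or more. Alignment tools in the submitters' processing notes include Bowtie2 2.2.6, and mm10 is listed as well as mm9. Coordinates were taken as mm10: with GRCm38 positions of En2 and Mnx1 shifted together by up to 500 kb, their contact in intraTAD2 was highest at a shift of 0 kb (8.06, against at most 1.84 beyond 50 kb). Genes come from the RefSeq annotation GRCm38.p6, and 23 protein-coding genes lie in the region. The wild-type table is 1 column of values that belongs to no sample. How duplicates were removed and where probes lie is not given in the sources used here.

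Each balanced value equals whole contacts times a factor of each bin. Both were recovered, with 100% of values whole within 0.01, although 27 listed bin pairs of 2xBorCTCF were not recovered and 9 were undefined. Bins whose number of partners was under 25% of the median in at least 1 map were dropped (10), leaving 548. Intervals treat the recovered contacts as Poisson counts weighted by their factors, so they hold counting error and nothing else. The window statistic and the recovery were run on simulated maps. These drew Poisson counts with the bin factors held fixed, as the intervals assume. They therefore do not cover error in the balancing or the spread between libraries. Reads carry no molecular identifiers. Named were all genes seen from Shh and Lmbr1, and for other gene pairs and tile pairs the 5 highest and 5 lowest called ratios with at least 100 contacts in each map. Further called gene pairs, the raised bin and the division of the domain at it were chosen after their values were seen. Members, windows and gene lists were all chosen with earlier results of these data known. Alternatives covered normalisation, balancing, bin filters, low counts, and window, tile and fold sizes. Leaving out the raised bin and filtering bins by the compared maps only were added after seeing the data. Python 3.11.15, NumPy 2.4.6 and pandas 2.3.3 were used.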

Additional observations from a re-analysis of the deposited data

How the results depend on the processing

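No paired analysis was possible because each genotype has 1 library, and for the same reason no replicate could be left out. Of the main results, 62 values under the alternatives stayed within the counting interval or within 1.5 times the main count, and 14 did not. Of the values for the other results, 998 stayed within these limits, 186 moved past them and 24 changed sign. With only listed bin pairs in the mean at each distance, a mean that by construction depends on depth, called block pairs came to 19, tile pairs to 493, Shh tiles to 17, gene pairs to 82 and border stripes to 15, and the corner to -0.068. The log2 ratio then turned negative for the start flank with the Shh part (-0.056), middle part (-0.16) and Lmbr1 part (-0.43), the En2 flank with the middle part (-0.20), the end flank with the middle part (-0.21), Lmbr1 part (-0.14) and Mnx1 flank (-0.14), the Mnx1 flank with itself (-0.0039), the Lmbr1 side of the raised bin with the En2 flank (-0.29), Dpp6 with Shh (-0.093), and Lmbr1 with Garem2 (-0.066), Hadhb (-0.013) and Selenoi (-0.041). Setting bin pairs of 1 contact to 0, which also depends on depth, gave 228 tile pairs and 39 gene pairs. It turned the end flank with the middle part (-0.035) and Lmbr1 part (-0.076), Lmbr1 with Cnpy1 (0.077), Rbm33 (0.060) and Shh (0.078), and the stripes to the En2 flank from inside the Shh border (-0.013) and outside the Lmbr1 border (0.049). Contacts without bin factors gave 0.47 for Shh with the raised-bin window, 1.73 percentage points for the share at 5 to 45 kb and 0.12 for the Shh border; the stripe from inside the Shh border to the En2 flank turned to -0.035 and insulation at 28720001 to 0.028. Scaling by the map total turned the Mnx1 flank with the end flank to -0.045. Tiles of 100 kb gave 11 calls. They form fewer pairs, so this count cannot be set against the 104 calls among 1485 pairs of 50 kb tiles. Among those 1485 pairs, a fold of 1.5 gave 26 calls and a fold of 2 gave 5. With no bin added beside genes, Shh with 3110082J24Rik came to -0.15. Other causes were not tested. Leaving out the raised bin moved none of the results recomputed without it beyond these limits. The 25 kb windows seen from Shh or from the raised-bin window, and the division of the domain at that bin, were not recomputed in this way. Depth limits the 2xBorCTCF map most, above all past 1000 kb.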
